A study of Mus musculus with 14 samples.

Results

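The genes described here are 10 of the 21734 genes named on the arrays: Gucy1a3, Gucy1b3, Pde5a, Ednra, Ednrb, Adra2a, Olfr558, Fhl5, Lgi1 and Cpa1. They comprise receptors and an enzyme known from the control of blood vessel tone, together with genes picked from these same arrays by their high log2 intensity in one sorted group, OCP3. Since several were selected by OCP3 values, every difference of OCP3 from another group is given for them as a description without a test, and tests are given only for comparisons in which OCP3 takes no part. Each gene had 1 probe set, so no choice among probe sets was needed. All 10 had a row and none was removed, as no filter on dim genes was used.

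The study sorted cells from C57BL/6 mouse embryos at embryonic day 16.5, taking the limbs apart with collagenase and dispase and lysing red cells, and arrayed their RNA on Affymetrix Mouse Gene 1.0 ST arrays. All 4 groups were gated as CD9+. OCP3 was CD73- Thy1+ (4 arrays), OCP4 was CD73+ Thy1+ (4 arrays), OCP1 was CD73+ Thy1- (3 arrays) and OCP2 was CD73- Thy1- (3 arrays). The groups are called osteochondroprogenitor sub-populations, meaning precursors of cartilage and bone, and they differ only in the sort gate: no allele, agent or age separates them. The labels do not say whether the arrays of a group came from separate embryos or litters, so the p-values reflect only how far these samples scatter, and that scatter may be technical.

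Vessel tone is set by smooth muscle cells and pericytes, the contractile cells that wrap arteries and capillaries. Nitric oxide relaxes them by binding soluble guanylate cyclase, a dimer of an alpha and a beta subunit (Gucy1a3 and Gucy1b3), which makes the messenger cyclic GMP; the phosphodiesterase Pde5a breaks cyclic GMP down. Endothelins, peptides released mainly by endothelium, contract vascular smooth muscle through the receptor Ednra and act on endothelium and on neural crest derivatives through Ednrb. Adra2a is a catecholamine receptor that lowers cyclic AMP. Olfr558 belongs to the olfactory receptor family and is one of few members of that family described outside the nose, in vascular smooth muscle among other places. Fhl5 is a LIM-domain protein described as a coactivator of the transcription factor CREM in mouse testis, Lgi1 is a secreted neuronal protein that binds receptors of the ADAM family at synapses, and Cpa1 is a digestive carboxypeptidase of the exocrine pancreas.

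The arrays were closely alike. Pearson correlations over genes ran from 0.9955 to 0.9979 within groups and from 0.9843 to 0.9945 between groups, and no batch or scan time is given in the sources used here. The gates were visible in the RNA: the CD73 gene Nt5e had a mean log2 intensity of 9.46 ± 0.44 in OCP3, 13.19 ± 0.16 in OCP4, 12.29 ± 0.16 in OCP1 and 9.30 ± 0.15 in OCP2, and Thy1 one of 12.60 ± 0.12 in OCP3, 13.22 ± 0.07 in OCP4, 9.33 ± 0.11 in OCP1 and 9.60 ± 0.36 in OCP2 (SD, n = 4, 4, 3 and 3 arrays). The lower and upper quartiles of log2 intensity over all genes were 7.24 and 10.72. In sorted bulk RNA, fewer cells of one type and less RNA per cell cannot be told apart.

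The gap between OCP3 and the other groups differed widely among the 10 genes. All OCP3 arrays were above all OCP4 arrays for 10 of 10 genes (13.7% of all genes met this condition), above all OCP1 arrays for 10 of 10 (15.8% of all genes) and above all OCP2 arrays for 9 of 10 (9.11% of all genes). These counts follow from how the genes were chosen. The median log2 difference over the 10 genes was 2.926 for OCP3 minus OCP4, 3.470 for OCP3 minus OCP1 and 2.170 for OCP3 minus OCP2, beside all-gene medians of -0.038, -0.027 and -0.029. Ednrb is the exception in OCP2, where its arrays overlapped those of OCP3, and Ednra the exception in OCP4, where the OCP3 arrays were higher by only 1.11-fold. Pde5a was also close, the lowest OCP3 array standing at 1.35 times the highest array of the other groups. The OCP3 arrays lay above every other array by at least that ratio for 8 of the 10 genes, while Ednra stood well apart from OCP1 and OCP2 only, and Ednrb from OCP4 and OCP1 only.

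**Figure D1:**
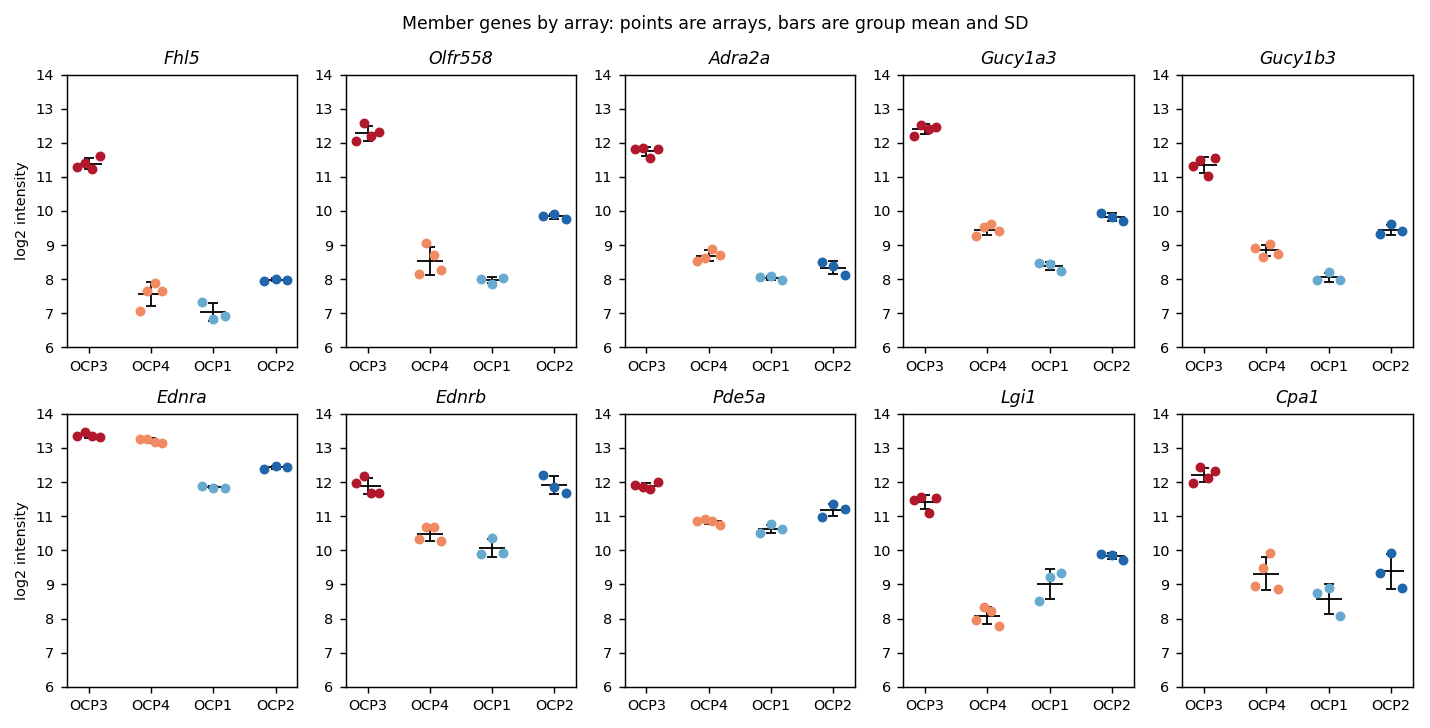
Log2 intensity (vertical axis) of the 10 genes in OCP3, OCP4, OCP1 and OCP2 (horizontal axis), with 1 point per array and bars for the group mean and SD (n = 4, 4, 3 and 3). The OCP3 points lie above all other points except for Ednrb, where the OCP2 points lie among them, and the gap for Ednra between OCP3 and OCP4 is small.

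OCP3 takes no part in the 3 other comparisons, although its arrays enter the shared variance estimate and the choice of genes may have weighed the levels of the other groups too. In them the genes did not move as one block. OCP4 exceeded OCP1 for 6 of the 10 genes (13.8% of all genes were higher), fell below it for 1 (12.4% of all genes were lower) and 3 did not pass. OCP4 was higher than OCP2 for 2 (10.4% of all genes) and lower for 6 (13.8% of all genes), with 2 not past the threshold. OCP1 was lower than OCP2 for 8 (6.56% of all genes) and higher for none (0 also at an unadjusted p under 0.05 in limma; 4.43% of all genes were higher), with 2 not past the threshold. The median log2 differences were 0.610, -0.388 and -0.883 in that order, beside all-gene medians of 0.011, 0.005 and -0.008. The tests were limma's, on log2 intensity over all 14 arrays, with Benjamini-Hochberg adjustment over the 21734 genes and a threshold of 0.05. The 3 comparisons share groups pairwise and are not independent of each other.

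**Figure D2:**
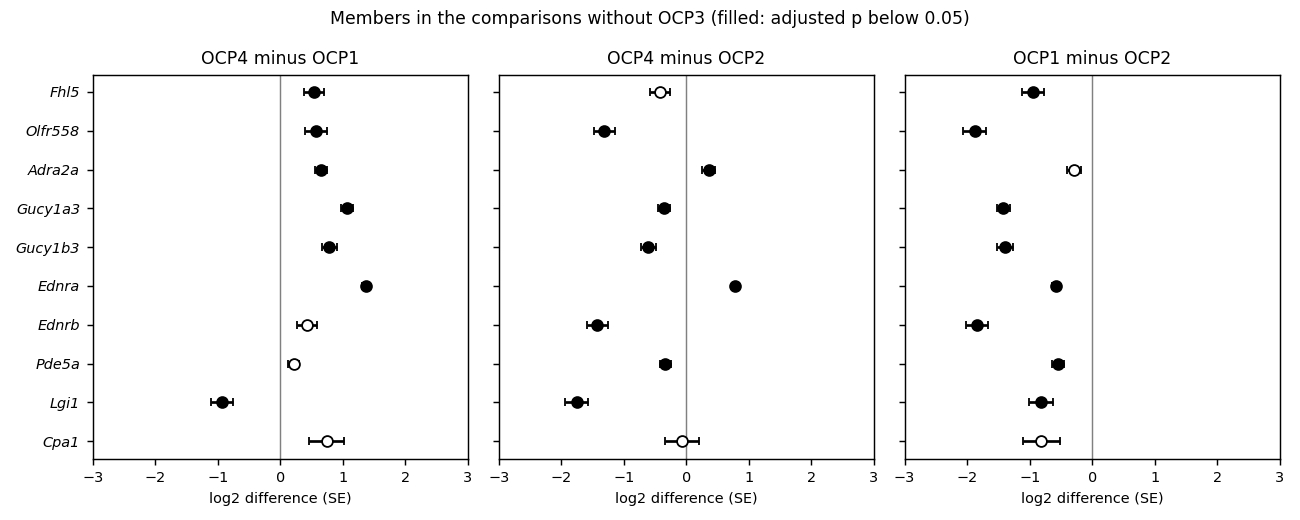
Log2 differences (horizontal axis, bars are SE) of the 10 genes (vertical axis) for OCP4 minus OCP1, OCP4 minus OCP2 and OCP1 minus OCP2. Filled points passed an adjusted p of 0.05 in limma; all 10 points of OCP1 minus OCP2 lie left of 0, while OCP4 minus OCP1 has 9 points right of 0 and Lgi1 alone left of it.

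Both subunits of the nitric oxide receptor were highest in OCP3. Gucy1a3, the alpha subunit (current symbol Gucy1a1), had intensities of 4699, 5918, 5473 and 5662 on the OCP3 arrays, against 618, 744, 779 and 676 on the OCP4 arrays, 359, 346 and 304 on the OCP1 arrays and 974, 899 and 835 on the OCP2 arrays. The OCP3 arrays stood apart, the OCP2 arrays came next above the OCP4 arrays, and the OCP1 arrays were lowest, with no overlap between any 2 groups. The log2 difference was 2.95 ± 0.09 for OCP3 minus OCP4 (7.73-fold, SE), 4.01 ± 0.10 for OCP3 minus OCP1 and 2.59 ± 0.10 for OCP3 minus OCP2 (6.01-fold). Among the other groups, OCP4 exceeded OCP1 by 1.06 ± 0.10 (adjusted p = 1.15e-06), OCP4 minus OCP2 was -0.36 ± 0.10 (adjusted p = 0.012) and OCP1 minus OCP2 was -1.43 ± 0.10 (adjusted p = 2.66e-06). Without OCP2 replicate 1 the OCP4 minus OCP2 value was -0.31 and its adjusted p 0.0611.

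Gucy1b3, the beta subunit that holds the heme to which nitric oxide binds (current symbol Gucy1b1), followed the same order of groups. Its intensities were 2563, 2879, 2106 and 3018 on the OCP3 arrays, against 484, 405, 528 and 429 on the OCP4 arrays, 252, 297 and 252 on the OCP1 arrays and 638, 785 and 682 on the OCP2 arrays. Again no groups overlapped, with OCP3 highest and OCP1 lowest. The log2 difference was 2.51 ± 0.11 for OCP3 minus OCP4, 3.30 ± 0.12 for OCP3 minus OCP1 and 1.90 ± 0.12 for OCP3 minus OCP2. OCP4 minus OCP1 was 0.79 ± 0.12 (adjusted p = 0.000232), OCP4 minus OCP2 -0.61 ± 0.12 (adjusted p = 0.00199) and OCP1 minus OCP2 -1.39 ± 0.13 (adjusted p = 1.7e-05). Within arrays, the log2 intensity of Gucy1a3 minus that of Gucy1b3 averaged 1.050 ± 0.230 in OCP3, against 0.611 ± 0.218 in OCP4, 0.333 ± 0.152 in OCP1 and 0.366 ± 0.217 in OCP2 (SD). On this measure the OCP3 arrays overlapped those of OCP4 and lay above those of OCP1 and OCP2.

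The genes of both subunits lie side by side on the minus strand of chromosome 3 in GRCm38.p6, Gucy1b3 at chr3:82032004-82074711 and Gucy1a3 at chr3:82092427-82145946, with 17715 bases and no other annotated gene between them. Their promoter windows are shown with those of Olfr558, Fhl5, Adra2a and Cpa1 because the smallest difference of OCP3 from any group was larger for these 6 genes than for the other 4. Each window holds 300 bases, from 250 before to 50 after a RefSeq transcript start (GRCm38.p6), written 5′ to 3′ on the gene's strand. Of the 10 genes, Gucy1a3 and Fhl5 have a second window, not shown, in which the motif marked below has 0 matches, so that each window shown carries it. Capitals mark TGGGAA or its reverse complement TTCCCA, the core letters bound by RBPJ, the transcription factor of Notch signalling.
Gucy1a3 promoter window (chr3:82145024-82145323, - strand): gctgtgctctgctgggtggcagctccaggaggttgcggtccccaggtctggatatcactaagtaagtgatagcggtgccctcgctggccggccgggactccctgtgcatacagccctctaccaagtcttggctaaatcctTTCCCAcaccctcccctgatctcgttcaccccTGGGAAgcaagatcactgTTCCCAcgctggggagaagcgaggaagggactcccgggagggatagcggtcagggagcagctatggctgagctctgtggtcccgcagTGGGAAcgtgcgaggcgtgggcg
Gucy1b3 promoter window (chr3:82074662-82074961, - strand): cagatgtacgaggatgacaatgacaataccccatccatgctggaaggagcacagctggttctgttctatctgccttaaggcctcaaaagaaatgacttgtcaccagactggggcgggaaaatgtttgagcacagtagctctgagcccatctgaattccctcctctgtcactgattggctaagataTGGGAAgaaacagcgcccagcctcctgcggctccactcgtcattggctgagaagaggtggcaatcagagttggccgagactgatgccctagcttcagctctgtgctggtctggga
Olfr558 promoter window (chr7:102702073-102702372, + strand): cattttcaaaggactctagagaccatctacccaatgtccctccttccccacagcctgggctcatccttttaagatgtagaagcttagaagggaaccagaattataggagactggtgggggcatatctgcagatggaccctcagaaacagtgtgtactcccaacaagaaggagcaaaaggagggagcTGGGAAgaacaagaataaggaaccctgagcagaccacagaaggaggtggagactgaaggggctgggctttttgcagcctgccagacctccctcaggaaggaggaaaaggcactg
Fhl5 promoter window (chr4:25242803-25243102, - strand): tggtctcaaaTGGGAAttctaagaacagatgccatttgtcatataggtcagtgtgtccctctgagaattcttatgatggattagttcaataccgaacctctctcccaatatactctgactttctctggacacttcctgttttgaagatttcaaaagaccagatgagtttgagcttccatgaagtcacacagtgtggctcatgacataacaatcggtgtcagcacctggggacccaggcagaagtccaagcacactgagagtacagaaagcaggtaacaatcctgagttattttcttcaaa
Adra2a promoter window (chr19:54045009-54045308, + strand): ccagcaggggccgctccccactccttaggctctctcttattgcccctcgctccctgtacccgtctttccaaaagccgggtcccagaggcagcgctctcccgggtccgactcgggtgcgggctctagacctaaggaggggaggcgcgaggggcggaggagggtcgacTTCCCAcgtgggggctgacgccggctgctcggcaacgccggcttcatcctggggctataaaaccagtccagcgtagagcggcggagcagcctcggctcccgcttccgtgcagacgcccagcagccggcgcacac
Cpa1 promoter window (chr6:30638968-30639267, + strand): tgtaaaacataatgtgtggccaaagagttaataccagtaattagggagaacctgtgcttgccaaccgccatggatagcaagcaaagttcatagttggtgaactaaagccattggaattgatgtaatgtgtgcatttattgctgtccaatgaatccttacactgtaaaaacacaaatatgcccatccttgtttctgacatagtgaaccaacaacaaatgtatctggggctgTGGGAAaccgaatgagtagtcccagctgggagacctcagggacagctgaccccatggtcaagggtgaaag
TGGGAA, searched on both strands, was present in the windows of 7 of the 10 genes (Gucy1a3, Gucy1b3, Pde5a, Adra2a, Olfr558, Fhl5 and Cpa1; 7 of their 12 windows), while 25.6% of all 32851 RefSeq windows of that length held it. The Gucy1a3 window shown held 4 matches. This motif was picked after a wider look at these windows, so the share is a description only, and a match is not a binding site. The serum response factor motif named the CArG box occurred in 1.63% of all windows and in 0 of the 12, and the motif named the MEF2 site in 0.557% and 0 of the 12, which says only that those letters are not in these windows. The cyclic AMP response half-site TGACG was in the windows of 3 genes (20.8% of all windows), GGGCGG in those of 5 (35.7% of all windows) and TATAAA in that of Adra2a alone (13.6% of all windows). In these windows no match of one motif overlapped a match of another.

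Pde5a, the cyclic GMP phosphodiesterase blocked by sildenafil, had a smaller range. Its intensities were 3844, 3683, 3543 and 4127 on the OCP3 arrays, against 1862, 1922, 1865 and 1723 on the OCP4 arrays, 1460, 1733 and 1577 on the OCP1 arrays and 2029, 2616 and 2352 on the OCP2 arrays. The OCP3 arrays were above every other array, the OCP2 arrays came next, and the OCP4 and OCP1 arrays overlapped. The log2 difference of OCP3 was 1.04 ± 0.08 from OCP4, 1.26 ± 0.08 from OCP1 and 0.71 ± 0.08 from OCP2. OCP1 was lower than OCP2 (-0.55 ± 0.09, adjusted p = 0.0012) and OCP4 lower than OCP2 (-0.33 ± 0.08, adjusted p = 0.00951), while OCP4 minus OCP1 missed the threshold (0.22 ± 0.08, adjusted p = 0.0797). Without OCP2 replicate 2 the OCP4 minus OCP2 value was -0.25 with an adjusted p of 0.0605, and OCP4 minus OCP1 passed without OCP1 replicate 2 (0.28, adjusted p = 0.0454) or OCP2 replicate 1 (adjusted p = 0.0397).

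Of 25 other genes of the nitric oxide and cyclic GMP pathway, 10 were higher in OCP3 than in OCP4 (13.6% of all genes) and 4 lower (14.2% of all genes), and against OCP2 9 were higher (6.63% of all genes) and 5 lower (9.48% of all genes). The list medians, 0.079 and -0.045, lay near the all-gene medians. Gucy1a2, the other alpha subunit, had group means of 11.60 ± 0.06 in OCP3, 9.81 ± 0.05 in OCP4, 9.58 ± 0.08 in OCP1 and 9.94 ± 0.03 in OCP2 (log2, SD) and was higher in OCP3 than in OCP4 (log2 difference 1.79 ± 0.05, adjusted p = 9.53e-12) and than in OCP2 (1.66 ± 0.05, adjusted p = 1.66e-10). Gucy1b2, a second beta subunit, gave -0.10 and -0.04 and did not pass (adjusted p = 0.343 and 0.773). Downstream of cyclic GMP, the kinase gene Prkg1 was higher by 0.97 than in OCP4 and by 1.04 than in OCP2, and Mrvi1, whose product is a substrate of that kinase on the calcium store, by 1.86 and 1.70 (adjusted p at most 7.89e-07 for all 4 values). Against OCP1, however, Prkg1 did not pass in limma, except without OCP1 replicate 1 (0.30, adjusted p = 0.0193). Of the enzymes that degrade cyclic nucleotides, Pde3a was higher by 1.37 and 1.21 and Pde9a by 1.75 and 0.42 (adjusted p at most 0.00246). Nos3, the endothelial synthase that makes nitric oxide, gave -0.07 (adjusted p = 0.765) against OCP4 and -0.49 (adjusted p = 0.0557) against OCP2, and passed against OCP2 without OCP2 replicate 3 (-0.69, adjusted p = 0.00774) or OCP3 replicate 2 (-0.61, adjusted p = 0.0158).

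The endothelin receptors differed from each other in which groups held the high values. Ednra (chr8:77663029-77724452) had intensities of 10395, 11248, 10471 and 10144 on the OCP3 arrays, against 9860, 9856, 9307 and 8974 on the OCP4 arrays, 3759, 3657 and 3628 on the OCP1 arrays and 5339, 5699 and 5535 on the OCP2 arrays. Both Thy1+ groups were high, OCP3 slightly above OCP4 without overlap, then OCP2, then OCP1. In the tests, OCP4 exceeded OCP1 by 1.37 ± 0.05 log2 units (adjusted p = 3.65e-10) and OCP2 by 0.78 ± 0.05 (adjusted p = 6.37e-08), and OCP1 was below OCP2 (-0.59 ± 0.06, adjusted p = 1.64e-05). OCP3 minus OCP4 was 0.15 ± 0.05, OCP3 minus OCP1 1.52 ± 0.05 and OCP3 minus OCP2 0.93 ± 0.05.

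Ednrb (chr14:103814615-103844508) was high in both CD73- groups. Its intensities were 4050, 4598, 3278 and 3291 on the OCP3 arrays, against 1288, 1631, 1648 and 1225 on the OCP4 arrays, 951, 1312 and 974 on the OCP1 arrays and 4693, 3690 and 3271 on the OCP2 arrays. The OCP3 and OCP2 arrays covered the same range, and OCP4 and OCP1 overlapped each other at a lower level. OCP4 was lower than OCP2 (log2 difference -1.42 ± 0.16, adjusted p = 1.24e-05) and OCP1 lower than OCP2 (-1.85 ± 0.17, adjusted p = 1.59e-05). OCP4 minus OCP1 was 0.43 ± 0.16 (adjusted p = 0.0706), and it passed without OCP1 replicate 2 (0.58, adjusted p = 0.0266) or OCP4 replicate 4 (0.50, adjusted p = 0.0477). OCP3 minus OCP4 was 1.39 ± 0.15, OCP3 minus OCP1 1.82 ± 0.16 and OCP3 minus OCP2 -0.03 ± 0.16. Between OCP4 and OCP2 the receptors went in opposite directions, Ednra being higher and Ednrb lower in OCP4, and their within-array log2 difference (Ednra minus Ednrb) was 2.725 in OCP4, against 0.524 in OCP2.

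Of 6 genes for endothelin ligands and the enzymes that cut them, 3 were lower in OCP3 than in OCP4 (50%, beside 14.2% of all genes), and the others did not pass. Against OCP2, 1 was higher (16.7%, beside 6.63%) and 3 lower (50%, beside 9.48%), although without OCP2 replicate 2 only 1 was lower. Edn3, the ligand known for its part with Ednrb in neural crest cells, averaged 9.47 ± 0.08 in OCP3, 11.06 ± 0.07 in OCP4, 9.79 ± 0.05 in OCP1 and 10.18 ± 0.11 in OCP2 (log2, SD), lower in OCP3 than in OCP4 (-1.59, adjusted p = 1.51e-10) and than in OCP2 (-0.71, adjusted p = 2.77e-06). Edn1, the main endothelial ligand, gave -0.13 against OCP4 (adjusted p = 0.55) and was lower than in OCP2 (-0.55, adjusted p = 0.0284). That Edn1 call was lost without OCP3 replicate 1, 3 or 4 or OCP2 replicate 1 or 2 (-0.53 to -0.41, adjusted p = 0.0649 to 0.151). Mme, a membrane peptidase that degrades endothelins, was lower than in OCP4 (-0.87, adjusted p = 1.6e-07) and higher than in OCP2 (0.39, adjusted p = 0.00169). Edn2 and the converting enzyme gene Ece1 did not pass in either comparison, with values between -0.09 and 0.08.

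Adra2a (chr19:54045259-54048982) had intensities of 3584, 3663, 2981 and 3585 on the OCP3 arrays, against 371, 395, 477 and 419 on the OCP4 arrays, 266, 273 and 253 on the OCP1 arrays and 361, 333 and 280 on the OCP2 arrays. The OCP3 arrays were at least 6.25 times the highest other array, and the other groups followed closely in the order OCP4, OCP2, OCP1 without overlap. The log2 difference of OCP3 was 3.06 ± 0.09 from OCP4, 3.71 ± 0.10 from OCP1 and 3.42 ± 0.10 from OCP2. OCP4 exceeded OCP1 (0.65 ± 0.10, adjusted p = 0.000198) and OCP2 (0.36 ± 0.10, adjusted p = 0.0169), the second call being lost without OCP2 replicate 3 (0.25, adjusted p = 0.102). OCP1 minus OCP2 did not pass (-0.29 ± 0.11, adjusted p = 0.107), but did without OCP2 replicate 3 (-0.39, adjusted p = 0.0368).

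Among 8 other adrenergic receptor genes, 4 were higher (50%, beside 13.6% of all genes) and 1 lower (12.5%, beside 14.2%) in OCP3 than in OCP4, and 4 were higher in OCP3 than in OCP2 (50%, beside 6.63%), where none was lower (0 also at an unadjusted p under 0.05 in limma). Adra2b, a close relative of Adra2a, averaged 9.52 ± 0.51 in OCP3, 7.77 ± 0.26 in OCP4, 7.71 ± 0.13 in OCP1 and 8.49 ± 0.17 in OCP2 (log2, SD). It was higher in OCP3 than in OCP4 (1.75, adjusted p = 1.03e-05) and than in OCP2 (1.03, adjusted p = 0.00438). The third alpha-2 gene, Adra2c, gave 0.05 and 0.06 and did not pass (adjusted p = 0.809 and 0.845). Of the alpha-1 receptor genes, which drive contraction, Adra1a was higher by 0.91 and 0.47 and Adra1d by 0.65 and 0.92 (adjusted p at most 0.00132).

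Olfr558 (chr7:102702323-102712054) had intensities of 4229, 6070, 4677 and 5139 on the OCP3 arrays, against 283, 531, 415 and 307 on the OCP4 arrays, 256, 234 and 262 on the OCP1 arrays and 923, 970 and 873 on the OCP2 arrays. The OCP2 arrays formed a middle level, well below OCP3 and above OCP4 and OCP1, and the OCP4 arrays lay above the OCP1 arrays by a small gap. The log2 difference of OCP3 was 3.74 ± 0.16 from OCP4 (13.4-fold), 4.32 ± 0.18 from OCP1 (19.9-fold) and 2.44 ± 0.18 from OCP2 (5.41-fold). OCP4 minus OCP2 was -1.31 ± 0.18 (adjusted p = 5.43e-05) and OCP1 minus OCP2 -1.88 ± 0.19 (adjusted p = 2.52e-05). OCP4 exceeded OCP1 by 0.57 ± 0.18 (adjusted p = 0.0259). That call was lost without OCP4 replicate 2 or 3 or any single OCP1 replicate (0.40 to 0.61, adjusted p = 0.0515 to 0.0898), and with only the arrays of OCP4 and OCP1 in the fit (adjusted p = 0.0591).

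The array named 1095 other olfactory receptor genes. Of these, 9 were higher (0.822%, beside 13.6% of all genes) and 44 lower (4.02%, beside 14.2%) in OCP3 than in OCP4, with a median of -0.059. Against OCP2, 7 were higher (0.639%, beside 6.63%) and 12 lower (1.1%, beside 9.48%), with a median of -0.046. The family was thus called less often than genes at large. The single one with a log2 difference above 1 in the 3 OCP3 comparisons was Olfr78, a receptor for short-chain fatty acids described in vascular smooth muscle and kidney. Its level was low, 7.72 ± 0.18 in OCP3, 6.14 ± 0.07 in OCP4, 5.98 ± 0.15 in OCP1 and 6.51 ± 0.10 in OCP2 (log2, SD). It was higher in OCP3 than in OCP4 (1.58 ± 0.09, adjusted p = 6.21e-09), than in OCP1 (1.74 ± 0.09, adjusted p = 8.3e-09) and than in OCP2 (1.21 ± 0.09, adjusted p = 6.86e-07), with no array overlap. Olfr78 (chr7:102740721-102759471, GRCm38.p6) and Olfr558 lie 28666 bases apart, with 3 annotated genes between them.

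**Figure D3:**
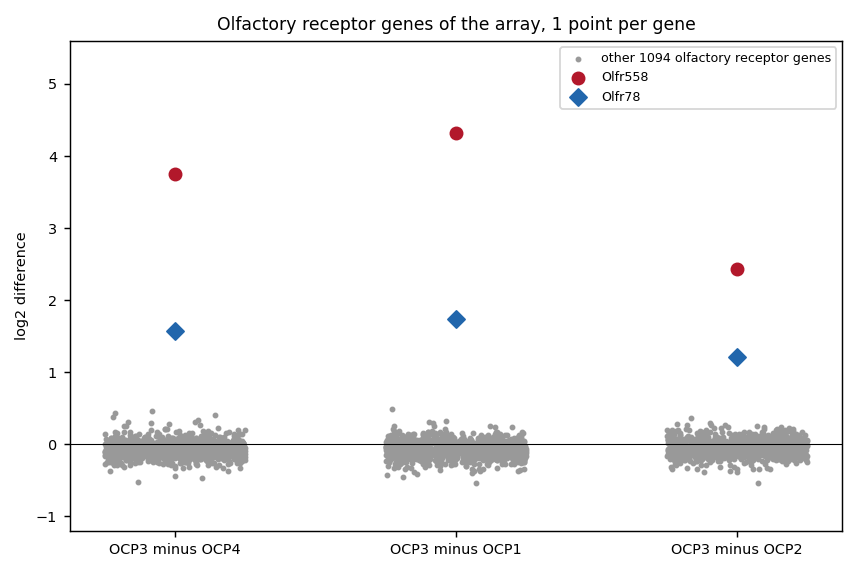
Log2 differences (vertical axis) of OCP3 from OCP4, OCP1 and OCP2 (horizontal axis) for the olfactory receptor genes of the array, 1 point per gene with arbitrary horizontal scatter. Olfr558 lies at 3.744, 4.316 and 2.436 and Olfr78 at 1.579, 1.736 and 1.211, while the remaining genes lie around 0 and below 1.

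Fhl5 (chr4:25199907-25242852) had the largest log2 difference of the 10 genes from OCP4 and from OCP1. Its intensities were 2507, 2722, 2404 and 3130 on the OCP3 arrays, against 136, 200, 237 and 202 on the OCP4 arrays, 162, 115 and 122 on the OCP1 arrays and 245, 260 and 254 on the OCP2 arrays. The OCP3 arrays were at least 9.25 times any other array, OCP2 was next with its arrays close together, and the OCP4 and OCP1 arrays overlapped. The log2 difference was 3.82 ± 0.15 for OCP3 minus OCP4 (14.1-fold), 4.35 ± 0.16 for OCP3 minus OCP1 (20.4-fold) and 3.40 ± 0.16 for OCP3 minus OCP2 (10.6-fold). OCP1 was lower than OCP2 (-0.95 ± 0.17, adjusted p = 0.00237), and OCP4 minus OCP2 did not pass (-0.41 ± 0.16, adjusted p = 0.0811) except without OCP4 replicate 3 (-0.52, adjusted p = 0.0282). OCP4 exceeded OCP1 by 0.53 ± 0.16 (adjusted p = 0.0237). This call was lost without OCP4 replicate 2, 3 or 4 or OCP1 replicate 2 or 3 (0.43 to 0.51, adjusted p = 0.0555 to 0.109), and with only the arrays of OCP4 and OCP1 in the fit (adjusted p = 0.0652).

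Of 6 other genes of the FHL family and its CREM and CREB partners, 2 were higher in OCP3 than in OCP4 (33.3%, beside 13.6% of all genes). Against OCP2, 2 were higher (33.3%, beside 6.63%), or 1 without OCP2 replicate 1. Fhl2, found in heart and smooth muscle, was higher by 1.34 than in OCP4 (adjusted p = 1.1e-08) and by 0.42 than in OCP2 (adjusted p = 0.00299). Fhl1, the skeletal muscle member, was higher by 0.74 than in OCP4 (adjusted p = 1.63e-06) and gave 0.06 against OCP2 (adjusted p = 0.68). Fhl3 gave -0.08 and -0.07 and did not pass.

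Lgi1 (chr19:38264687-38308939) was the one gene of the 10 that was lowest in OCP4. Its intensities were 2830, 3040, 2206 and 2935 on the OCP3 arrays, against 251, 323, 299 and 221 on the OCP4 arrays, 365, 594 and 642 on the OCP1 arrays and 958, 940 and 844 on the OCP2 arrays. OCP3 was highest, followed by OCP2, OCP1 and OCP4, with no overlap between groups. OCP4 was lower than OCP1 (log2 difference -0.94 ± 0.18, adjusted p = 0.00115) and than OCP2 (-1.75 ± 0.18, adjusted p = 4.08e-06), and OCP1 was lower than OCP2 (-0.82 ± 0.19, adjusted p = 0.0124). OCP3 minus OCP4 was 3.34 ± 0.17, OCP3 minus OCP1 2.40 ± 0.18 and OCP3 minus OCP2 1.58 ± 0.18. Of 6 relatives and ADAM receptors, 2 were higher (33.3%, beside 13.6% of all genes) and 2 lower (33.3%, beside 14.2%) in OCP3 than in OCP4. The lower count was 1 without any one of OCP3 replicates 1, 3 and 4 or OCP4 replicates 1, 2 and 3. Lgi2, another secreted LGI protein, was higher than in OCP4 (1.33, adjusted p = 2.6e-08) and gave -0.05 against OCP2 (adjusted p = 0.775). Adam22, a receptor of Lgi1, was lower than in OCP4 (-0.40, adjusted p = 0.0033) and higher than in OCP2 (0.39, adjusted p = 0.0106), the second being lost without OCP2 replicate 1 (0.29, adjusted p = 0.063). Adam23, the other such receptor, gave 0.07 and 0.06 and did not pass.

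Cpa1 (chr6:30639218-30645361) had intensities of 3998, 5557, 4455 and 5104 on the OCP3 arrays, against 498, 714, 964 and 470 on the OCP4 arrays, 426, 479 and 268 on the OCP1 arrays and 652, 960 and 473 on the OCP2 arrays. The OCP3 arrays stood apart, and the arrays of the other groups ran into each other, with a log2 SD of 0.44 to 0.51 within those groups. The log2 difference of OCP3 was 2.90 ± 0.25 from OCP4, 3.64 ± 0.27 from OCP1 and 2.83 ± 0.27 from OCP2. None of the 3 tests without OCP3 passed: OCP4 minus OCP1 was 0.74 ± 0.27 (adjusted p = 0.0628), OCP4 minus OCP2 -0.07 ± 0.27 (adjusted p = 0.894) and OCP1 minus OCP2 -0.81 ± 0.29 (adjusted p = 0.0978). The first passed without OCP4 replicate 1 or 4, OCP1 replicate 2, or OCP2 replicate 2 or 3 (0.74 to 0.91, adjusted p = 0.0367 to 0.0499), and the third without OCP2 replicate 3 (-1.06, adjusted p = 0.047). Of 11 other carboxypeptidase genes, 4 were higher (36.4%, beside 13.6% of all genes) and 3 lower (27.3%, beside 14.2%) in OCP3 than in OCP4. Against OCP2, 1 was higher (9.09%, beside 6.63%) and 3 lower (27.3%, beside 9.48%), with 1 lower without OCP3 replicate 3 or OCP2 replicate 2. Cpz, a secreted carboxypeptidase that binds Wnt proteins, was lower in OCP3 than in OCP4 (-2.02, adjusted p = 1.2e-10), as was Cpa6 (-1.92, adjusted p = 3.23e-07). Cpb1, another pancreatic digestive enzyme, gave 0.29 (adjusted p = 0.0376) against OCP4 and -0.26 (adjusted p = 0.11) against OCP2. The Cpb1 call against OCP4 was lost without OCP3 replicate 1, 2 or 4 or OCP4 replicate 2 or 4 (adjusted p = 0.0618 to 0.12). Over 12 marker genes of pancreatic acinar cells, which include Cpb1, the summed intensity was 2262 to 2501 in OCP3, against 2353 to 3064 in OCP4, 2253 to 2766 in OCP1 and 2387 to 3379 in OCP2.

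Most genes on a list of ion channels and signalling proteins of contractile cells were higher in OCP3. Of 30, 21 were higher in OCP3 than in OCP4 (70%, beside 13.6% of all genes) and 0 were lower (2 at an unadjusted p under 0.05 in limma), with a median log2 difference of 0.609. Without OCP3 replicate 1 the lower count was 1, and without OCP4 replicate 2 it was 2. Against OCP1, 18 were higher (60%, beside 12.5% of all genes) and 5 lower (16.7%, beside 11.9%), with a median of 0.343. Against OCP2, 18 were higher (60%, beside 6.63%) and 3 lower (10%, beside 9.48%), with a median of 0.357. Rgs5, a regulator that shortens G protein signalling and a pericyte marker, averaged 13.28 ± 0.17 in OCP3, 9.53 ± 0.43 in OCP4, 8.58 ± 0.15 in OCP1 and 10.58 ± 0.08 in OCP2 (log2, SD), with a difference of 3.75 ± 0.16 from OCP4 (adjusted p = 5.87e-10) and 2.70 ± 0.18 from OCP2 (adjusted p = 1.25e-07). The cation channel gene Trpc6 was higher by 2.33 than in OCP4 and by 2.76 than in OCP2. Kcnj8 and Abcc9, which encode the pore and regulatory subunits of a potassium channel that opens when ATP falls, were higher by 1.50 and 2.37 than in OCP4 and by 2.11 and 2.09 than in OCP2 (adjusted p at most 1.64e-08 for these 6 values). The lists were chosen with earlier results of these arrays known, and the comparisons with OCP4 and OCP2 share the OCP3 arrays.

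Receptors for other vasoactive agents were divided. Of 35, 11 were higher (31.4%, beside 13.6% of all genes) and 10 lower (28.6%, beside 14.2%) in OCP3 than in OCP4. Against OCP2, 11 were higher (31.4%, beside 6.63%) and 6 lower (17.1%, beside 9.48%), with medians of 0.047 and 0.081. Avpr1a, the vascular vasopressin receptor, was higher in OCP3 than in OCP4 (1.69, adjusted p = 1.51e-09) and than in OCP2 (2.21, adjusted p = 1.06e-09). Npy1r, a receptor for the sympathetic transmitter neuropeptide Y, was higher by 0.44 and 1.41 (adjusted p at most 0.000854), and Ptgir, the prostacyclin receptor, by 0.52 and 0.84 (adjusted p at most 0.000124). Ptgfr, the prostaglandin F receptor, was lower in OCP3 than in OCP4 (-1.81, adjusted p = 5.12e-10) and gave -0.09 against OCP2 (adjusted p = 0.566), and the muscarinic receptor gene Chrm2 was lower than in OCP4 (-1.39, adjusted p = 5.85e-06) and gave -0.34 against OCP2 (adjusted p = 0.192).

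**Figure D4:**
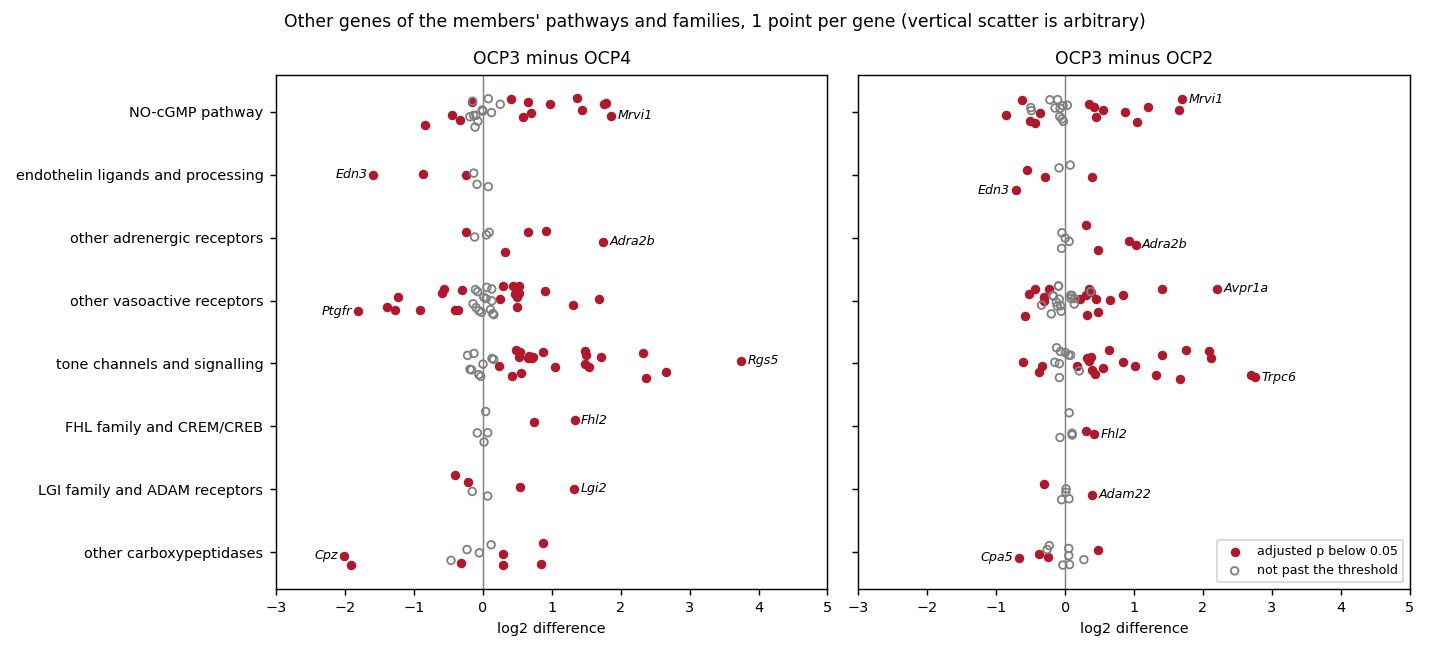
Log2 differences (horizontal axis) of OCP3 from OCP4 and from OCP2 for the other genes of 8 pathway and family lists (vertical axis), 1 point per gene. Filled points passed an adjusted p of 0.05 in limma and the gene with the largest absolute difference of each list is named; the list of tone channels and signalling lies mostly right of 0, with Rgs5 at 3.75 and Trpc6 at 2.76, and the endothelin list has Edn3 at -1.59 and -0.71.

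Most markers of pericytes, smooth muscle and osteoblasts were also higher in OCP3 than in OCP4 and in OCP2. The summed intensity of 12 pericyte markers was 78794 to 88818 in OCP3, against 34173 to 36412 in OCP4, 28607 to 30565 in OCP1 and 31996 to 34394 in OCP2. Of the 12, 11 were higher (91.7%, beside 13.6% of all genes) and 1 lower (8.33%, beside 14.2%) in OCP3 than in OCP4. Against OCP2, 11 were higher (91.7%, beside 6.63%) and 1 did not pass. The sum of 12 smooth muscle markers was 46385 to 57683 in OCP3, against 18259 to 22508 in OCP4, 16217 to 25120 in OCP1 and 28210 to 30552 in OCP2. Of these, 10 were higher (83.3%) and 2 lower (16.7%) than in OCP4, and against OCP2 7 were higher (58.3%) and 5 did not pass. The count of 2 lower was 1 without any one OCP4 replicate, without OCP3 replicate 1, 3 or 4, without OCP1 replicate 1 or 3, or without OCP2 replicate 2 or 3. Myh11, the smooth muscle myosin, was higher by 2.79 and 1.42 (adjusted p = 3.68e-06 and 0.00565), and Myocd, the coactivator that drives smooth muscle genes, by 2.45 and 1.47 (adjusted p = 6.67e-09 and 8e-06). Rgs5, Kcnj8 and Abcc9 stand both among the pericyte markers and in the channel and signalling list. The summed intensity of 8 osteoblast markers was 44412 to 47582 in OCP3, against 35371 to 40125 in OCP4, 48886 to 50448 in OCP1 and 31949 to 35755 in OCP2, so OCP1 and not OCP3 was highest. Of these 8, 6 were higher (75%, beside 13.6% of all genes) and 1 lower (12.5%, beside 14.2%) in OCP3 than in OCP4 (median log2 difference 0.891). Against OCP2, 5 were higher (62.5%, beside 6.63%) and 3 did not pass (median 1.158). The sum of 8 chondrocyte markers was 12738 to 16884 in OCP3, against 12628 to 19954 in OCP4, 61875 to 74471 in OCP1 and 33998 to 43065 in OCP2. All 8 were lower in OCP3 than in OCP2 (100%, beside 9.48% of all genes). The part of these cell types in the OCP3 levels of the 10 genes was not tested.

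The sums of nerve markers and of endothelial markers overlapped between OCP3 and OCP2, as did the Ednrb arrays. The summed intensity of 10 Schwann cell and nerve markers was 16122 to 20435 in OCP3, against 6910 to 9010 in OCP4, 7043 to 7665 in OCP1 and 14467 to 18085 in OCP2. Of these 10 markers, 9 were higher (90%, beside 13.6% of all genes) and 1 lower (10%, beside 14.2%) in OCP3 than in OCP4. Against OCP2, 1 was higher in OCP3 (10%, beside 6.63%) and 9 did not pass. In OCP1, 8 were lower than in OCP2 (80%, beside 6.56%). Fabp7, a fatty acid binding protein of glia, gave 2.51 for OCP3 minus OCP4 (adjusted p = 9.88e-08), 0.85 for OCP3 minus OCP2 (adjusted p = 0.00774) and -1.43 for OCP1 minus OCP2 (adjusted p = 0.00047). The sum over 12 endothelial markers was 17566 to 22941 in OCP3, against 12842 to 15518 in OCP4, 8910 to 10136 in OCP1 and 18949 to 31628 in OCP2. Of these, 6 were higher in OCP3 than in OCP4 (50%, beside 13.6% of all genes), but 3 without OCP3 replicate 2 or 3 or OCP4 replicate 1, 2 or 4. Of the 6, Esam (2.13, adjusted p = 3.31e-07) and Emcn (1.23, adjusted p = 6.59e-05) had the largest differences. Lower in OCP3 was 1 (8.33%, beside 14.2%), Sox18 (-1.27, adjusted p = 1.17e-05), a transcription factor of vessel endothelium. Against OCP2, 1 was higher (8.33%, beside 6.63%, and 2 without OCP2 replicate 1) and 4 were lower in OCP3 (33.3%, beside 9.48%). The higher one was Esam (0.92, adjusted p = 0.00357), and Robo4 (-1.19, adjusted p = 0.000751) and Pecam1 (-1.07, adjusted p = 0.000278) were among the lower ones. No marker is at 0 on these arrays, where each probe set carries an intensity, and the part of nerve or endothelial cells in the Ednrb values was not tested.

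**Figure D5:**
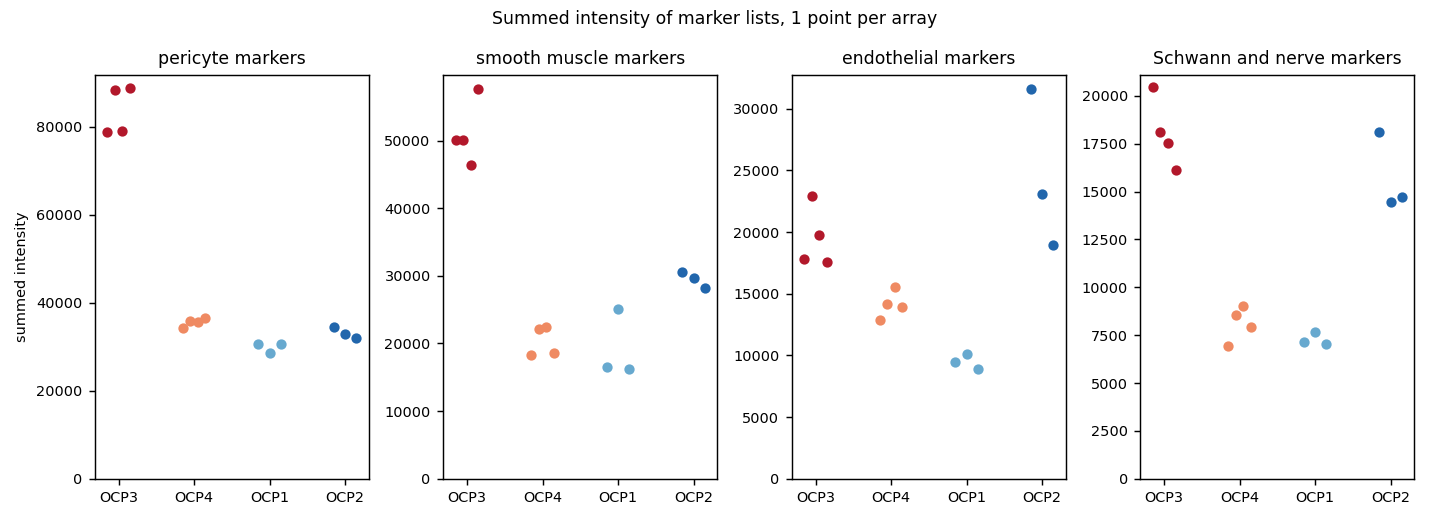
Summed intensity (vertical axes, each starting at 0) of pericyte, smooth muscle, endothelial and Schwann and nerve marker lists in OCP3, OCP4, OCP1 and OCP2, 1 point per array. The pericyte and smooth muscle sums of the OCP3 arrays lie above all others, while the endothelial and the Schwann and nerve sums are high in OCP2 as well as in OCP3.

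The genes with the most similar profiles were found by centring each gene's log2 values on its own mean and taking the root-mean-square difference over the 14 arrays, where a smaller value means a closer profile. Rgs5 was nearest to Olfr558 (0.235) and to Fhl5 (0.373). Nrarp was nearest to Gucy1b3 (0.222), followed by Rasl12 (0.278) and Ccl11 (0.287). Ifi203 was nearest to Gucy1a3 (0.337) and to Adra2a (0.367), and in Gucy1a3 the next were Gucy1b3 (0.340) and Cpa1 (0.343). Cpa1 in turn had Gucy1a3 (0.343), Ifi203 (0.356) and Adra2a (0.368) as its nearest. Lgi1 had Naalad2 (0.436) and Vtn (0.445) among its nearest. The profiles of lesser range had closer neighbours: Tspan17 (0.129) and Fam65b (0.141) for Ednra, Bmp2k (0.110), Cap2 (0.123) and Stom (0.145) for Pde5a, and Emcn (0.149), an endothelial marker of the list above, for Ednrb. The arrays share these groups, so the values describe profiles and were not tested.

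Within OCP3 the lowest and highest arrays were counted over the 10 genes. The same counts were not made over all genes, so they do not set these genes apart from genes at large. OCP3 replicate 3 was the lowest array for 6 of them, replicate 1 for 3 and replicate 4 for 1, and replicate 2 was the highest for 7 and replicate 4 for 3. The ratio of the highest to the lowest OCP3 array ran from 1.11 for Ednra to 1.44 for Olfr558. For each gene this ratio was smaller than the fold difference of OCP3 from each other group, except for Ednra against OCP4 and Ednrb against OCP2. For Ednra against OCP4 the ratio and the fold difference were both 1.11. For Ednrb against OCP2 the ratio was 1.4, larger than the fold difference of 1.02.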

How the data were processed

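The members and the gene lists were chosen with earlier results of these data known. The submitters' processing notes name RMA, which corrects background, quantile-normalizes and summarises probes, and limma, without versions; no annotation build is named there. The authors' deposited intensity values are on a linear scale for 35556 probe sets on 14 arrays, with array medians of 328.1 to 346.8, and log2 was taken here. A second deposited table pairs rows with symbols beside the authors' log2 differences and adjusted p-values; only its symbols were used, joined by row position, which the values bore out within 5.17e-09 log2 units. Of 25254 probe sets with a symbol, 26 carried dates in place of symbols and were left unnamed. The brightest probe set stood for each of the 1920 symbols with several, giving 21734 genes. No dim genes were removed, and no detection calls were used.

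Groups were compared with limma 3.58.1 (R 4.3.3, statmod 1.5.0), with 1 mean per group over all 14 arrays, no covariates, eBayes at its defaults and Benjamini-Hochberg adjustment over all genes at 0.05. The script was tested on simulated data. Genes named besides the 10 are the 3 with the largest absolute difference past the threshold in each list for OCP3 minus OCP4 and OCP3 minus OCP2, the largest in each comparison without OCP3, close partners and relatives of the 10, and the 3 nearest profiles of each; some genes the rule names are not reported here. The alternatives tried were a replicate block, median centring, quantile normalization, a trended robust prior, fits to 2 groups, array weights, the mean of probe sets, a filter on dim genes and leaving out each array. Symbols were matched to RefSeq names of GRCm38.p6, and promoter windows come from RefSeq. Array intensities compress differences between dim signals, and the number of arrays limits the precision.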

Additional observations from a re-analysis of the deposited data

Results flagged for a closer look

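Adra2a in OCP3 had a lowest array that stood apart from its other arrays. OCP3 replicate 3 was at an intensity of 2981, against 3584 to 3663 on the other OCP3 arrays, and the gap to the nearest divided by the range was 0.893 on the log2 scale, above Dixon's 95% critical value for 4 samples. It was the single such case among 20 groups of 4 arrays tested, and chance flags about 1 in 20.

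The Thy1+ minus Thy1- difference of Lgi1 had opposite signs in CD73- and CD73+ cells. In CD73- cells, OCP3 minus OCP2 was 1.5822 on the log2 scale, and in CD73+ cells OCP4 minus OCP1 was -0.9374. No arrays of the paired groups overlapped. The difference between these differences was not tested, since Lgi1 was chosen with OCP3 values.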

How the results depend on the processing

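The differences of OCP3 from the other groups kept their direction for all 10 genes under every normalization and leave-one-out setting run, except the one within spread, Ednrb against OCP2 (-0.14 to 0.12 when single arrays were left out). The mean of all probe sets could not change these values, since each of the 10 genes had 1 probe set. As several of the genes were picked by their OCP3 values, the kept directions are a description only. In the 3 tested comparisons, calls on members changed as follows; the cause was not tested. With a replicate block, OCP4 minus OCP1 was 0.48 for Fhl5 (adjusted p = 0.0706), 0.50 for Ednrb (0.0277) and 0.79 for Cpa1 (0.05). With only the arrays of OCP4 and OCP1 in the fit it was 0.53 for Fhl5, 0.57 for Olfr558 (adjusted p = 0.0652 and 0.0591) and 0.22 for Pde5a (0.0486); with a trended robust prior Pde5a was again 0.22 (0.0495), with median centring Ednrb 0.44 (0.0471), and with dim genes left out Cpa1 0.74 (0.0492). Leaving out single arrays gave OCP4 minus OCP1 of 0.43 to 0.70 for Fhl5, 0.40 to 0.70 for Olfr558, 0.34 to 0.58 for Ednrb, 0.16 to 0.28 for Pde5a and 0.49 to 0.91 for Cpa1. It gave OCP4 minus OCP2 of -0.52 to -0.25 for Fhl5, 0.25 to 0.44 for Adra2a, -0.42 to -0.30 for Gucy1a3 and -0.43 to -0.25 for Pde5a, and OCP1 minus OCP2 of -0.39 to -0.21 for Adra2a and -1.06 to -0.55 for Cpa1. The genes called in OCP1 minus OCP2, 2388 in all, numbered 1477 to 2516 when single arrays were left out, with 1477 without OCP1 replicate 1 and 1486 without OCP2 replicate 2. Total numbers of genes called in the other 5 comparisons stayed within 1.5 times. Counts by direction and counts of list members moved by more in places, as given below and in the results. The labels do not say whether replicate numbers pair the samples. Over 19 same-numbered pairs the correlation of deviations from group means ran from -0.4194 to 0.3951, with 8 above 0.1, which does not settle it. The block gave 5778, 4761, 2901, 5265, 4767 and 2153 calls for OCP3 minus OCP4, OCP1 and OCP2, OCP4 minus OCP1 and OCP2, and OCP1 minus OCP2, against 6046, 5309, 3502, 5706, 5251 and 2388 without it. Median centring moved the split of calls, higher to lower, to 2550 and 4134 in OCP3 minus OCP4 (2949 and 3097 as deposited), 1695 and 1534 in OCP3 minus OCP2 (1442 and 2060), 3753 and 2287 in OCP4 minus OCP2 (2258 and 2993) and 1531 and 976 in OCP1 minus OCP2 (963 and 1425). Among 11076 values of named list genes, 248 calls were lost, 132 gained and 2 turned, Runx2 in OCP3 minus OCP4 (-0.0145) and Ece2 in OCP4 minus OCP2 (0.29), both with the mean of all probe sets. Background correction from scanner files and slides was not run.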
